A study of Mus musculus with 23 samples.

Results

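The Shh domain of mouse chromosome 5 is flanked on both sides by gene-rich stretches, and the contacts described here are those that skip the domain and join the left flank to the right flank. They were chosen by position alone. Each pairs a bin of the left flank (bins 0 to 20, chromosome 5, 28.317 to 28.758 Mb, mm9) with a bin of the right flank (bins 66 to 79, 29.703 to 29.997 Mb). This gave 294 of the 3160 pairs that 80 bins of 21 kb can form, between 966 and 1659 kb apart. All 294 had a value in every library, and no pair was dropped by the filter on low values. Pairs of the left flank with the central domain (bins 22 to 64, left-to-central) and of the central domain with the right flank (central-to-right) served as the comparison at like separation.

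The measurements are 5C (chromosome conformation capture carbon copy), in which chromatin is fixed, cut with HindIII and ligated, and primers at the cut sites turn ligated neighbours into sequenced products. There were 23 samples in 21 libraries, since each D700 library joins 2 technical replicates. E14 embryonic stem cells (ESCs, a mouse line that stands for the early embryo) were wild type, or one of the lines DCTCF1, DCTCF2, DCTCF3, DCTCF4, DCTCF5 and D35, with 2 biological replicates each. By their names the DCTCF lines concern CTCF sites and D35 a deletion, but the labels give no position, and whether a line is 1 clone is not stated. The other libraries came from CD1 mouse embryos at stage E11.5, namely anterior limb buds (2), posterior limb buds (2), whole embryos labelled D700 (2) and embryo bodies (1). The labels do not say whether animals were pooled or whether 1 or both chromosomes carry the D700 deletion.

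As background, contacts within the nucleus fall with the distance along the chromosome and are further shaped into domains, stretches whose parts meet each other more than they meet their neighbours. CTCF, held at oriented sites by cohesin, is known to mark many domain borders. The Shh domain is known for long-range control: Shh encodes a secreted signal that patterns the limb, and its limb enhancer lies far away within an intron of Lmbr1, at the opposite end of the domain. By the gene order of the RefSeq annotation, Insig1, En2, Cnpy1 and Rbm33 lie before Shh, followed by Rnf32 and Lmbr1, and then by Nom1, Mnx1 and Ube3c. En2 and Mnx1 encode homeobox transcription factors, En2 of the midbrain and hindbrain and Mnx1 of motor neurons and pancreas. Which bin holds which gene was not looked up, because the annotation used here is of another build.

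Each library's contact values summed to between 45908 and 48797 over pairs at least 2 bins apart, so the libraries were comparable in total. Only 101 to 110 of the 294 values were distinct in a library, and 45.1 to 45.8% of the pairs equalled the value of the next right bin, so single pairs are not independent. No library had values for bins 25, 29 and 64. Missing from the D700 matrices were bins 27 to 58, a stretch of 672 kb, and in both D35 libraries bin 65, next to the right flank, was at 0 with 59 bins (at most 2 in any other library). A value of 0 among the members was seen in 3 libraries, with at most 3 pairs each. The data hold no expression, so the labelled tissues could not be checked against marker genes. In a mixture of cells, more cells with a contact and a more frequent contact per cell cannot be told apart.

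The first question was whether the flanks meet more than distance predicts. In wild type ESCs the left-to-right pairs had a mean contact value of 10.9 in replicate 1 and 8.78 in replicate 2, and they took 6.56% and 5.31% of all contact. Per library, the mean over the pairs was divided by the mean over comparison pairs at the same separation. This could be done for the 105 pairs whose separation was shared with at least 5 comparison pairs, and only 28 of them could be set against central-to-right pairs. Against both kinds of comparison pair the log2 ratio in wild type ESCs was 0.17 and 0.15, an excess that is small but above 0 in both libraries. With medians in place of means the 2 libraries stood at -0.08 and 0.12, on either side of 0. The 2 kinds of comparison pair gave different answers. Against central-to-right pairs the log2 ratio was 0.97 ± 0.02 (SD, n = 2), and against left-to-central pairs it was 0.06 ± 0.005 (SD, n = 2). The 28 pairs lie at the shortest separations, so the 2 ratios cover unlike sets. Over the 105 pairs the flanks met about as often as the left flank met the central domain. Over the 28 pairs they met more often than the central domain met the right flank. At 966 to 1071 kb the mean values were 13.3 for left-to-right, 8.67 for left-to-central and 7.49 for central-to-right pairs.

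The same order held in the other unedited libraries, again with 28 pairs set against central-to-right and 105 against left-to-central pairs. Against central-to-right pairs the log2 ratio was 0.94 and 0.86 in anterior limb buds, 0.81 and 0.84 in posterior limb buds and 1.13 in the embryo body. Against left-to-central pairs it was 0.17 and 0.13 in anterior limb buds, 0.12 and 0.08 in posterior limb buds and 0.01 in the embryo body. Over all 21 libraries, all 21 lay above 0 against central-to-right pairs (lowest 0.40, highest 1.38) and 15 lay above 0 against left-to-central pairs (lowest -0.33, highest 0.20). The 6 libraries below 0 against left-to-central pairs were both of DCTCF1, both of D700, DCTCF4 replicate 2 at -0.005 and D35 replicate 2 at -0.09. These are descriptions, since a score over chosen pairs was not tested.

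**Figure D1:**
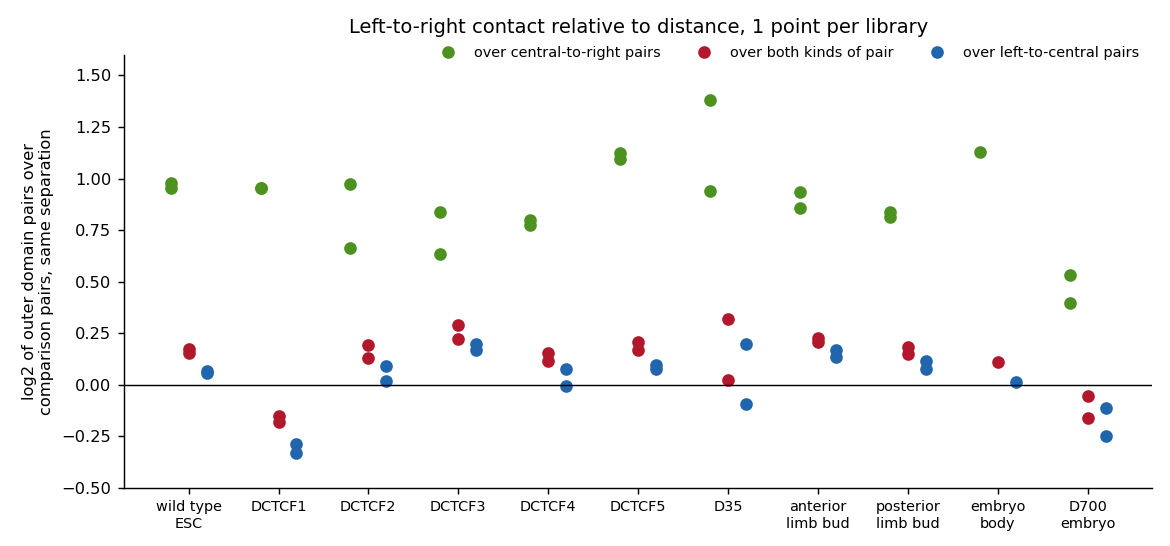
Log2 of the mean contact value of left-to-right pairs over that of comparison pairs at the same separation (vertical axis), 1 point per library, by group. Points against central-to-right pairs lie above 0 in all 21 libraries, whereas points against left-to-central pairs lie between -0.09 and 0.20 except in DCTCF1 and D700, where all 4 lie below that. The former rest on 28 pairs at the shortest separations and the latter on 105.

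With separation, left-to-right contact fell slowly. In wild type ESCs the mean value was 13.3 ± 0.87 (SD, n = 2) for the 21 pairs at 966 to 1071 kb, 10.4 ± 0.94 for the 57 pairs at 1092 to 1197 kb and 11.3 ± 2.2 for the 97 pairs at 1218 to 1344 kb. It was 8.59 ± 1.4 for the 83 pairs at 1365 to 1491 kb and 5.92 ± 1.1 for the 36 pairs at 1512 to 1659 kb. Left-to-central contact ran the other way, with 8.67 ± 0.17, 10.2 ± 0.94 and 11.9 ± 0.95 over the first 3 of these classes. The left-to-right pairs therefore exceeded the left-to-central pairs in the shortest class, where both libraries (13.9 and 12.6) lay above both left-to-central means (8.79 and 8.55). In the next 2 classes the values overlapped. They were 11.0 and 9.70 against 10.9 and 9.57, then 12.9 and 9.74 against 12.5 and 11.2. Central-to-right contact was 7.49 ± 0.95 and 5.59 ± 0.46 in the 2 classes where it could be measured. In the 4 limb bud libraries the left-to-right means were 15.1 ± 1.3, 11.7 ± 1.4, 11.6 ± 0.81, 9.47 ± 1.3 and 8.54 ± 2.3 (SD, n = 4) over the same 5 classes.

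**Figure D2:**
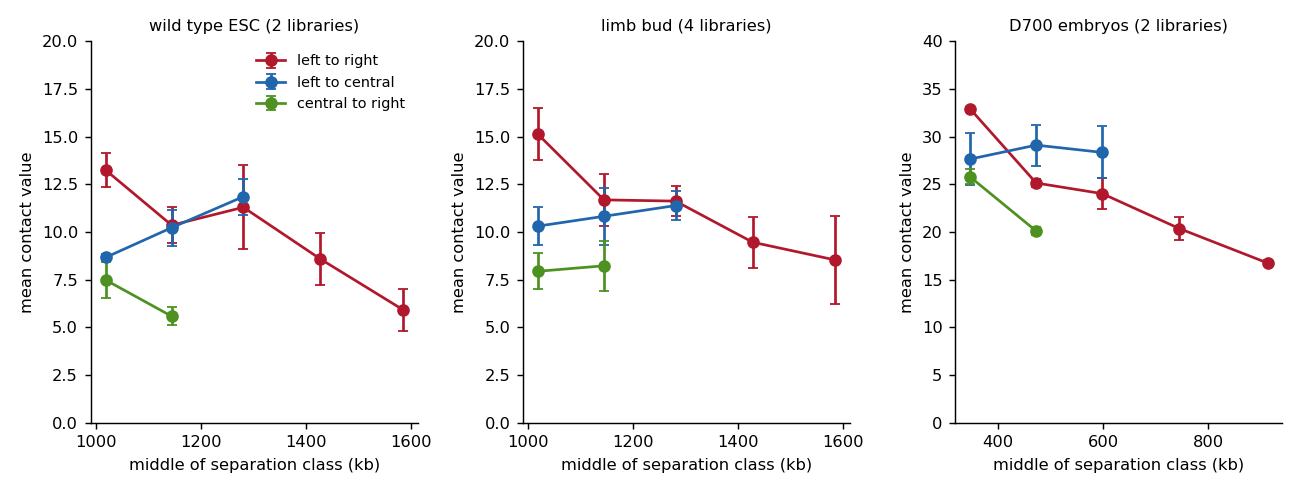
Mean contact value (vertical axis) against the middle of each separation class in kb (horizontal axis) for left-to-right, left-to-central and central-to-right pairs; points are means and bars SDs over libraries, and D700 has its own vertical scale and is counted along the shortened chromosome. Central-to-right pairs lie lowest in each panel, and left-to-right pairs lie above left-to-central pairs in the shortest class.

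Pair by pair, each log2 ratio to the expected value was tested against 0 with limma over all 2505 pairs that could be tested, with Benjamini-Hochberg adjustment and a threshold of 0.05. In wild type ESCs 27 of the 105 testable left-to-right pairs were higher than expected and 20 were lower, with a median log2 ratio of 0.13. Over all pairs 37.3% were called higher and 13.9% lower, with a median of 0.16, but these include the pairs inside each domain. Among the 161 left-to-central pairs of like separation 28 were higher and 24 lower, and among the 64 central-to-right pairs 8 were higher and 39 lower. The left-to-right block was thus mixed, as was the left-to-central block, whereas most calls in the central-to-right block were low. The expected value is the mean of these same left-to-central and central-to-right pairs. Their calls are tied to each other by construction and give no independent background. In limb buds 35 of 105 were higher and 9 lower, with a median of 0.07, against 37.0% and 12.7% of all pairs tested. Of the pairs called higher, 20 were shared between wild type ESCs and limb buds (74.1% of the wild type list and 57.1% of the limb bud list), and of those called lower 8 were shared (40% and 88.9%). The same overlap over all pairs tested was not counted, and pairs that share a value count more than once. These shares are therefore not read as a trait of the block.

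Of the 5 highest called pairs, 4 lay where the flanks face each other across the domain. Only the 105 pairs of shortest separation could be tested here, so pairs further apart could not be among them. On the power law of distance used below for all 294 pairs, bin 20 with bin 67 ranked 6 in wild type ESCs. Bin 20 with bin 66 ranked 17, and bin 8 with bin 70 ranked 1. Bin 20 (28.737 to 28.758 Mb), the last of the left flank, met bin 67 (29.724 to 29.745 Mb) with values of 19.9 and 24.1 in wild type ESCs, a log2 ratio of 1.03 (SE 0.20, adjusted p = 0.00121, limma). The innermost pair, bin 20 with bin 66, had 18.0 and 17.4 (log2 ratio 0.77, SE 0.14, adjusted p = 0.00074, limma). Bin 20 with bin 69 (0.72) and bin 18 with bin 66 (0.73) were also called. In limb buds the innermost pair had 24.3, 23.8, 24.2 and 17.1, and the ratio there was 0.93 (SE 0.09, adjusted p = 0.00017, limma). These values ranked 5, 5, 4 and 41 among the 294 pairs. With bins balanced, so that each has the same summed contact, the ranks were 80, 58, 73 and 248. The remaining pair of the 5 highest joined bin 11 (28.548 to 28.569 Mb) with bin 70 (29.787 to 29.808 Mb), with 29.2 and 19.8 in wild type ESCs (log2 ratio 0.79, adjusted p = 0.00834, limma). Without wild type replicate 1 that call and the one of bin 18 with bin 66 were lost (0.62, adjusted p = 0.141, and 0.59, adjusted p = 0.151, limma). In limb buds that pair ran from 0 in posterior replicate 2 to 18.6 in posterior replicate 1.

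The 3 lowest called pairs all involved bins 12 and 13 (28.569 to 28.611 Mb). Bin 13 with bin 72, which shares its value with 3 neighbouring pairs, stood at 4.89 and 3.15 in wild type ESCs, a log2 ratio of -0.96 (SE 0.11, adjusted p = 2.50e-05, limma). Bins 12 and 13 with bins 70 and 71 share 1 value, 7.47 and 5.26. Bin 12 with bin 71 was called at -0.61 and bin 12 with bin 70 at -0.54. With bins balanced none of the 3 stayed past the threshold, at -0.10, -0.26 and -0.11 (adjusted p = 0.465, 0.0598 and 0.350, limma), and neither did the innermost pair (0.29, adjusted p = 0.0939) or bin 11 with bin 70 (0.27, adjusted p = 0.188, limma). The outermost pair, bin 0 with bin 79, lay beyond any comparison pair, with values of 3.21 and 3.45 in wild type ESCs and 4.78 to 9.08 in limb buds.

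To cover all 294 pairs, a power law of distance fitted to each library's comparison pairs was used as the expected value. On this scale 82 pairs were higher and 24 lower in wild type ESCs, with 41.2% and 15.4% of all 2853 pairs tested called, and 85 were higher and 21 lower in limb buds, with 38.8% and 14.5% of all pairs. The share of members called higher was 27.9% and 28.9%, below the share of all pairs. For left-to-central pairs the share called higher was 16.9% and 16.1%, and for central-to-right pairs it was 7.32% and 5%. The power law was fitted to these comparison pairs, so their shares give no independent background.

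Contact was uneven along both flanks. On the left, the bins of highest mean log2 ratio with the right flank in wild type ESCs were bin 8 (28.485 to 28.506 Mb) at 0.56 ± 0.21 (SD, n = 2), bin 20 at 0.46 ± 0.04 and bin 11 at 0.39 ± 0.05. The lowest were bins 12 and 13, at -0.24 ± 0.09 and -0.25 ± 0.09. On the right the highest were bin 70 at 0.66 ± 0.17, bin 71 at 0.55 ± 0.24 and bin 66 at 0.48 ± 0.12, and the lowest were bins 78 and 79, both at -0.11 ± 0.01. The outer part of the right flank, bins 72 to 79, stayed near 0 in wild type ESCs. Bins 5, 8 and 20 were above 0 in all 21 libraries and bins 12 and 13 in none, and on the right bins 66, 67 and 71 were above 0 in all 21. Neighbouring bins often share values, and a bin's ratio also holds how well its own fragments were captured, which was not tested.

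**Figure D3:**
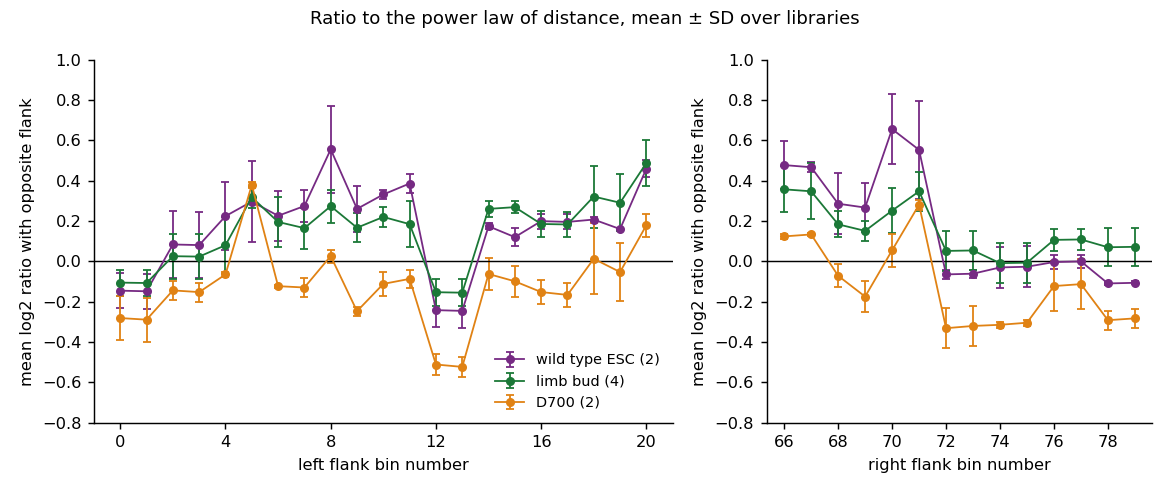
Mean log2 ratio to the power law of distance (vertical axis) of each left flank bin with the whole right flank and each right flank bin with the whole left flank (horizontal axis, bin number); points are means and bars SDs over 2 wild type ESC, 4 limb bud and 2 D700 libraries. Bins 8 and 20 on the left and bins 66 to 71 on the right stand high in wild type ESCs, and bins 12 and 13 lie below 0 in all 3 groups.

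A single pair stood apart from the rest. Bin 8 with bin 70 (28.485 to 28.506 Mb with 29.787 to 29.808 Mb, 1302 kb apart) had a value of 123 in wild type ESC replicate 1 and 55.2 in replicate 2, which were 13.1 and 6.76 times the median of the block. It was named after its values were seen, besides being named by a comparison below. The next highest member was 51.6 and 26.7 in these libraries. It had the highest of the 294 values in 13 of the 14 ESC libraries and ranked 4 in DCTCF4 replicate 2. In the 14 ESC libraries it ran from 26.4 to 123 with a median of 68.4. In E11.5 libraries it was 34.1 and 31.0 in anterior limb buds, 26.4 and 29.1 in posterior limb buds, 52.2 in the embryo body and 54.0 and 87.7 in D700, and it ranked 1 in 4 of the 7. The limb bud values overlapped those of DCTCF4 and lay below all other ESC libraries, whereas the embryo body value lay within the ESC range. The D700 values are not comparable as such, because these matrices spread nearly the same total over 48 bins. As a multiple of the median of the block, the pair ran from 2.82 to 13.1 in ESC libraries. On this scale the pair stood at 2.69 in D700 replicate 1, below all ESC libraries, and at 4.22 in replicate 2, within their range. With bins balanced so that each has the same summed contact, it kept rank 1 in 13 of the 14 ESC libraries and in 2 of the 7 E11.5 libraries, falling to rank 47 in D700 replicate 1. Its separation has no comparison pairs in number, so it could be tested only against the power law, where the log2 ratio was 2.85 in wild type ESCs (SE 0.20, adjusted p = 2.87e-07, limma) and 1.33 in limb buds (SE 0.15, adjusted p = 0.000131, limma).

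In wild type ESCs the pair stood above its neighbours. In wild type ESCs the mean over both libraries was 89.0 for bin 8 with bin 70 and 35.4 for bin 8 with bin 71, whereas bin 8 with bin 69 was at 13.6 and bins 7 and 9 with bin 70 were at 21.7 and 10.8. In anterior limb buds bin 8 with bin 71 was as high as the pair, with a mean of 32.1 (18.4 and 45.9) against 32.6, and in D700 it was 61.6 against 70.9. In posterior limb buds it was 18.6 against 27.7 and in the embryo body 27.6 against 52.2. Bin 5 with bin 70 was also high in wild type ESCs, at 32.0 and 26.7, and had 11.7, 18.98, 13.9 and 4.89 in limb buds. In the fragment counts of limb buds, the 6 fragment pairs of bin 8 with bin 70 held 368 and 397 counts in anterior and 159 and 262 counts in posterior libraries. The mean count per fragment pair there was 61.3, 66.2, 26.5 and 43.7, against 13.9, 14.7, 10.3 and 16.3 over all 2872 left-to-right fragment pairs. In posterior replicate 2 a single fragment pair gave 224 of the 262 counts, while in the other 3 libraries the largest gave 130, 144 and 57.

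**Figure D4:**
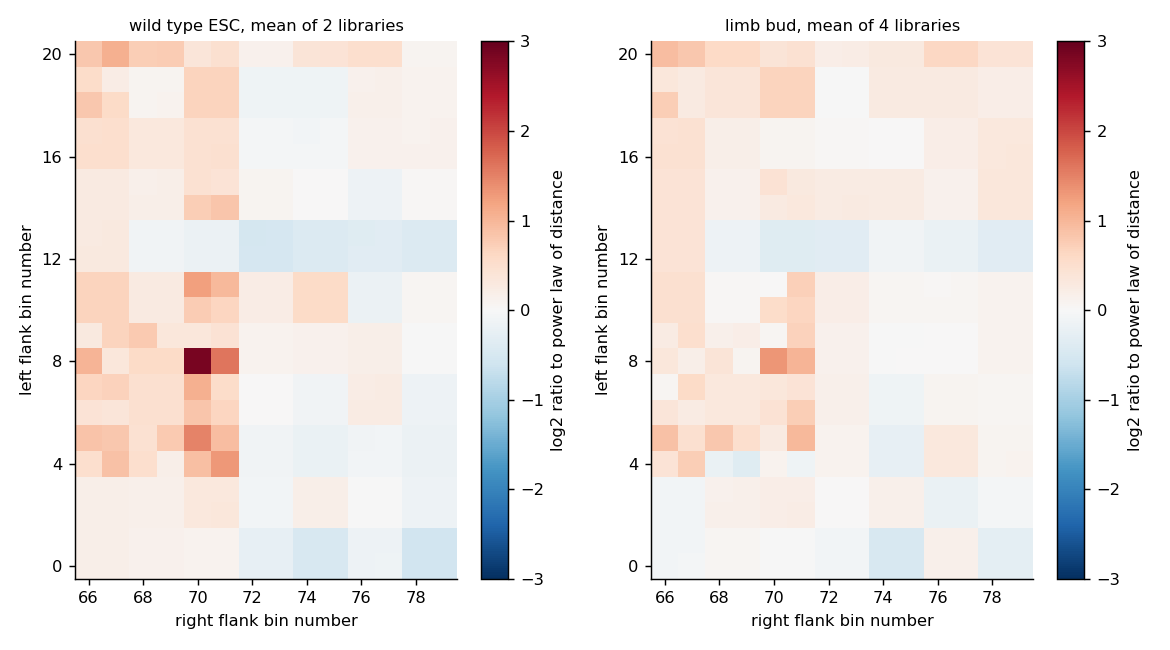
Log2 ratio of each left-to-right pair to the power law of distance (colour, from -3 to 3) for left flank bins (vertical axis) and right flank bins (horizontal axis), as the mean of 2 wild type ESC and of 4 limb bud libraries. Bin 8 with bin 70 has the highest ratio in both maps, bins 66 to 71 form a high strip, and bins 12 and 13 form a low one.

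Limb buds, as the mean of anterior and posterior, were compared with wild type ESCs to ask whether the flanks meet differently in an embryo tissue. No left-to-right pair passed the threshold (0 of 294, limma), with 40 at an unadjusted p under 0.05, and over all 2853 pairs 0 were called higher and 0.0701% lower, with 14.2% under an unadjusted 0.05. The median log2 change of the members was 0.16, against 0.05 over all pairs tested. The pair of smallest p was bin 8 with bin 70, lower in limb buds by a log2 change of -1.31 (SE 0.27, adjusted p = 0.204, limma). The 4 limb bud values lay below both wild type values, but without wild type replicate 1 the log2 change was -0.77. Bin 5 with bin 70 was next (-1.03, adjusted p = 0.209, limma). Tissue and strain cannot be told apart in this comparison.

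Posterior limb buds, where Shh is expressed, were compared with anterior ones, where it is silent. No member passed the threshold, with 42 at an unadjusted p under 0.05 and none called among all pairs (0.00% higher and 0.00% lower, with 11.3% under an unadjusted 0.05, limma). The median log2 change of the members was 0.14, against 0.08 over all pairs. Bin 20 with bin 67 had the smallest p, with 27.5 and 28.7 in anterior and 17.7 and 10.8 in posterior libraries (log2 change -0.80, SE 0.21, adjusted p = 0.399, limma). The next, bin 0 with bin 68, had 6.56 and 5.70 in anterior and 14.5 and 11.9 in posterior libraries (log2 change 0.70, adjusted p = 0.399, limma). The anterior and posterior values of these pairs did not overlap, but with 2 libraries a group many pairs show this.

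The fragment counts of the same 4 libraries hold 749738 to 1400833 counts over 343 fragments. Left-to-right pairs took 3.89% (95% exact binomial interval 3.85 to 3.93) and 3.05% (3.02 to 3.08) in anterior and 3.93% (3.88 to 3.97) and 3.35% (3.32 to 3.38) in posterior libraries. The replicates of a group differed by more than these intervals, which cover counting error only, since 5C reads are not independent molecules. Posterior replicate 2 stood apart by its sparse coverage, with 56.7% of the left-to-right fragment pairs at 0 against 24.1 to 42.2% in the other 3. On the counts, the log2 ratio at the same separation was 0.89 ± 0.12 (SD, n = 4) against central-to-right and -0.003 ± 0.07 (SD, n = 4) against left-to-central fragment pairs. The first covers 955 left-to-right fragment pairs and the second 1862, so they rest on unlike sets of separations. In edgeR's quasi-likelihood test on counts summed to bin pairs, 0 of 293 members passed the threshold between posterior and anterior limb buds, with 14 at an unadjusted p under 0.05 and none of the 2959 pairs called (0.00% each way). The median log2 change of the members was -0.09 on the counts and 0.14 on the contact values. Its sign thus differed between the 2 measures of the same libraries. DESeq2 called 1 member, higher in posterior, with 0.203% of all pairs called higher and 0.101% lower. Without posterior replicate 1, edgeR called 30 members (5 higher and 25 lower), with 2.00% of all 2945 pairs called higher and 6.45% lower, and posterior limb buds were then represented by the sparse library alone.

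The ESC lines were compared with wild type to ask whether contact across the domain differs in them. All 6 comparisons share the 2 wild type libraries. For the block as a whole the changes were small, with a median log2 change over the 294 members of 0.03 in DCTCF1, -0.08 in DCTCF2, 0.02 in DCTCF3, 0.03 in DCTCF4, 0.06 in DCTCF5 and 0.12 in D35, against 0.07, -0.07, -0.01, 0.003, -0.005 and 0.08 over all pairs. In DCTCF1, DCTCF3 and DCTCF5 no member passed the threshold (limma), with 4, 19 and 15 at an unadjusted p under 0.05. No pair at all was called in these 3 lines (0.00% higher and 0.00% lower), and 7.78, 7.01 and 5.57% of all pairs had an unadjusted p under 0.05. In DCTCF2 1 member was lower, with 0.00% of all pairs higher and 0.0351% lower. In DCTCF4 3 members were lower and 0 higher, with 0.105% of all pairs higher and 0.666% lower. In D35 4 members were higher and 2 lower, with 0.576% of all pairs called each way.

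Bin 8 with bin 70 was among the pairs lower in DCTCF4, at 34.1 and 26.4 against 123 and 55.2 in wild type ESCs (log2 change -1.34, SE 0.28, adjusted p = 0.0471, limma). Both DCTCF4 values lay below the 12 other ESC libraries, which ran from 49.2 to 123. The call held under 7 alternatives and was lost under 4. Among those that lost it were leaving out wild type replicate 1 (log2 change -0.79) and leaving out DCTCF4 replicate 2 (-1.18). Run year as a covariate also lost it (-1.09, adjusted p = 0.169, limma). The summed contact of bin 8 moved with it, from 5.24% and 4.02% of all contact in wild type to 2.90% and 2.93% in DCTCF4, as did that of bin 70, from 3.06% and 2.65% to 1.94% and 2.20%. The part of this in the result was not tested. On the deposited observed over expected matrices the pair stood at 8.03 and 5.25 in wild type ESCs and at 3.13 and 2.28 in DCTCF4.

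The other pairs lower in DCTCF4 and the pair lower in DCTCF2 all involved bin 4 (28.401 to 28.422 Mb), which holds 1 fragment in the fragment matrices. Bin 4 with bin 71 had 27.6 and 22.9 in wild type ESCs, 5.79 and 0 in DCTCF4 (log2 change -2.11, SE 0.27, adjusted p = 0.00257, limma) and 4.44 and 3.32 in DCTCF2 (-1.82, adjusted p = 0.0445, limma). It was also lower in D35, at 8.09 and 7.87 (-1.24, adjusted p = 0.0462, limma), a call lost without any 1 of the 4 libraries compared. It had 8.20 and 9.23 in DCTCF3 (-1.16, adjusted p = 0.291, limma). The 8 libraries of DCTCF2, DCTCF3, DCTCF4 and D35 ran from 0 to 9.23, and the 6 of wild type, DCTCF1 and DCTCF5 from 19.2 to 27.6. These 2 sets were formed after the values were seen, so their lack of overlap is no test. How many other pairs part under such a split was not counted. Bin 4 with bin 67 was lower in DCTCF4, at 5.27 and 0 against 23.8 and 13.1 (-1.74, adjusted p = 0.0321, limma). Without wild type replicate 1 neither DCTCF4 call stayed past the threshold (bin 71, adjusted p = 0.0521; bin 67, adjusted p = 0.235, limma). The call of bin 4 with bin 67 was also lost without DCTCF4 replicate 2 (-1.19, adjusted p = 0.160) and with run year as a covariate (-1.53, adjusted p = 0.135, limma), and the DCTCF2 call was lost without any 1 of its 4 libraries. The share of all contact taken by bin 4 was 3.28% and 3.16% in wild type ESCs, 2.66% and 2.31% in DCTCF4, 2.51% and 2.65% in DCTCF2, 2.62% and 2.57% in DCTCF3 and 3.04% and 3.02% in D35. Its part in the result was not tested. In posterior limb bud replicate 2 bin 4 with bin 71 was at 0 as well.

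In D35 the 4 pairs called higher share a single value, that of bins 18 and 19 (28.695 to 28.737 Mb) with bins 70 and 71 (29.787 to 29.829 Mb), and count as 1 measurement. It was 40.7 and 31.2 in D35 against 16.8 and 13.8 in wild type ESCs, a log2 change of 1.02 (SE 0.16, adjusted p = 0.00411, limma). The call was lost without wild type replicate 2 (0.92, adjusted p = 0.0787) and without D35 replicate 1 (0.86, adjusted p = 0.0924, limma). The 12 other ESC libraries ran from 9.45 to 16.8, so D35 did not overlap them. The same value was 46.6 in the embryo body and 14.0 to 30.0 in limb buds. It was 66.4 and 33.8 in D700, whose values are not comparable as such with the other libraries. Bin 4 with bin 66 was lower in D35, at 1.70 and 1.43 against 16.7 and 9.20 (-1.48, SE 0.26, adjusted p = 0.00836, limma). That call was lost without wild type replicate 1 (-1.17, adjusted p = 0.116) and without either D35 library (adjusted p = 0.0924 and 0.120, limma). The innermost pair, bin 20 with bin 66, had 10.4 and 8.68 in D35 against 18.0 and 17.4, which did not pass the threshold (-0.66, adjusted p = 0.172, limma). Bin 66 borders bin 65, which was empty in D35, and its share of all contact was 2.23 ± 0.06% in D35 and 3.06 ± 0.17% in wild type ESCs (SD, n = 2). Both D35 libraries carry a later run year than all others, so run year and line cannot be told apart. The D35 libraries also differed from each other in the level over distance, 0.32 and 0.02.

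**Figure D5:**
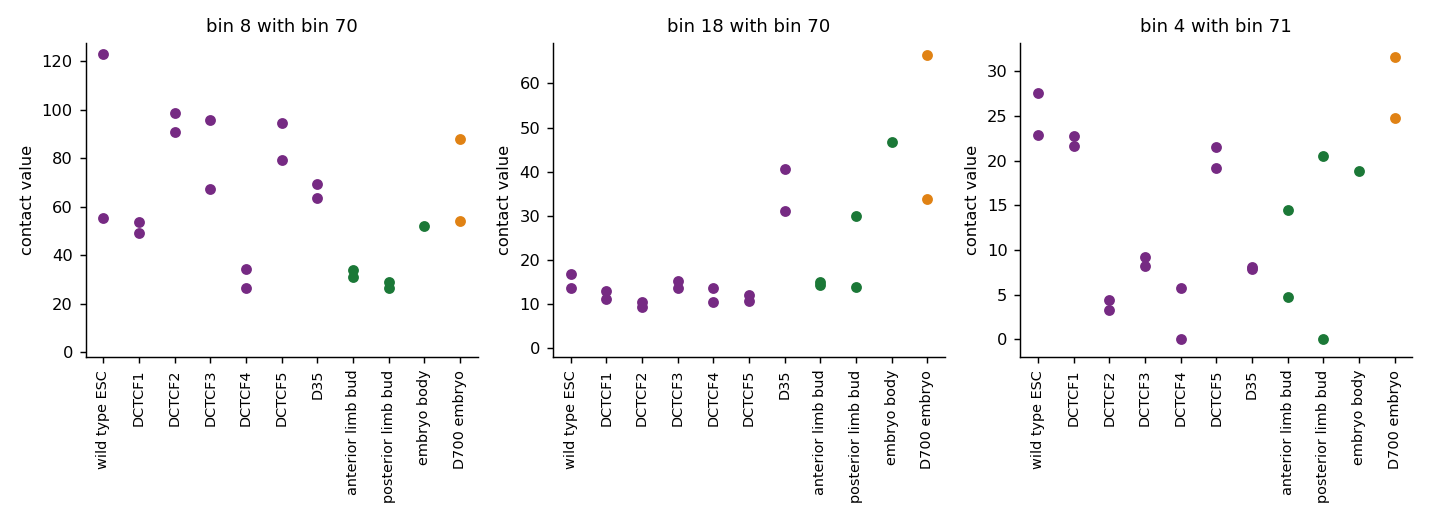
Contact value (vertical axis) of 3 left-to-right pairs in every library, 1 point per library, by group (ESC lines, then unedited E11.5 tissues, then D700). Bin 8 with bin 70 is lowest among ESC lines in DCTCF4, bins 18 with 70 are highest among ESC lines in D35, and bin 4 with bin 71 is low in DCTCF2, DCTCF3, DCTCF4 and D35.

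In DCTCF1 the level relative to distance lay below 0 although the block itself was near wild type. Its left-to-right mean was 9.66 and 10.0, within the wild type values of 10.9 and 8.78, but the level over both kinds of comparison pair was -0.18 and -0.15, below 0 in both libraries. The left-to-central mean was 11.3 and 11.3 in DCTCF1 against 9.88 and 9.02 in wild type ESCs. The median log2 change over the 840 left-to-central pairs was 0.18 in DCTCF1, with 747 of them above 0, though none passed the threshold and 117 had an unadjusted p under 0.05. With bins balanced, the level in DCTCF1 was 0.07 and 0.08. Among its left-to-right pairs those of smallest p were bin 5 with bin 68, at 29.2 and 31.9 against 18.4 and 7.49 (log2 change 1.09, adjusted p = 0.247, limma), and bin 6 with bin 67, at 21.9 and 19.2 against 11.3 and 10.6 (0.70, adjusted p = 0.278, limma). In DCTCF3 bin 18 with bin 67 had 4.10 and 5.38 against 12.8 and 15.5 (-1.01, adjusted p = 0.128, limma). In DCTCF5 bin 5 with bin 68 had 28.5 and 36.8 (1.16, adjusted p = 0.583) and bin 7 with bin 71 had 24.7 and 30.2 against 17.6 and 9.60 (0.86, adjusted p = 0.634, limma).

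In D700 embryos the flanks lie 294 to 987 kb apart along the shortened chromosome, and the question was whether they then meet as distance predicts. The mean left-to-right value was 22.2 and 23.4, above the 9.23 to 12.4 of the 5 unedited E11.5 libraries. These means are not comparable as such, because each library has nearly the same total and the D700 matrices spread it over 48 bins. Over the bins kept in D700, left-to-right pairs took 14.2% and 15.0% of all contact in D700 and 12.2 to 17.1% in the unedited libraries, so the groups overlapped. The ratio of the left-to-right mean to the mean within the left flank was 0.31 in both D700 libraries and 0.22 to 0.36 in the unedited ones. In the limma fit over these bins no member passed the threshold, with 8 at an unadjusted p under 0.05, while 1.01% of all 993 pairs were called higher and 0.00% lower. The median log2 change of the members was -0.08, against -0.03 over all pairs tested, and 66 of the 294 were above 0. The pair of smallest p was bin 5 with bin 68, with 72.4 and 69.9 in D700 and at most 36.2 in the unedited libraries (log2 change 0.82, SE 0.20, adjusted p = 0.198, limma). Without posterior limb bud replicate 2, the sparse library, it passed the threshold (0.92, adjusted p = 0.0428, limma). Bins 8 and 9 with bins 78 and 79, which share 1 value, were next.

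Counted along the shortened chromosome, mean left-to-right contact in D700 was below left-to-central and above central-to-right contact. The first ratio covers 105 pairs and the second 28. The level over both kinds was -0.05 and -0.16, against 0.11 to 0.22 in the 5 unedited libraries at their own separations, and with bins balanced it was -0.22 in both. With one pair kept per run of equal values it was -0.05 and 0.05, on either side of 0. Against left-to-central pairs it was -0.11 and -0.25, and against central-to-right pairs it was 0.53 and 0.40. In the class of 294 to 399 kb the left-to-right mean was 32.9 ± 0.19 (SD, n = 2), above the left-to-central mean of 27.7 ± 2.7, whereas at 546 to 651 kb it was 24.0 ± 1.6 against 28.4 ± 2.7. Of the 105 testable members 5 were higher than expected and 21 lower (limma, median log2 ratio -0.14), with 23.3% of all 658 pairs called higher and 12.5% lower. Without D700 replicate 1 these counts were 0 and 1, and without replicate 2 they were 0 and 0. Bins 12 and 13 were again the lowest on the left, at -0.51 ± 0.05 and -0.52 ± 0.05, and the innermost pair was called higher, at 46.9 and 50.4 (log2 ratio 0.55, SE 0.11, adjusted p = 0.0112, limma). Its values ranked 12 and 9 among the 294 pairs, and 207 and 67 with bins balanced. The comparison pairs in D700 come from the few central bins that remain, next to the edges of the deletion. Whole embryos, limb buds and bodies differ in tissue, so tissue and deletion cannot be told apart.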

How the data were processed

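The members and lists were chosen with earlier results of these data known. The authors deposited 21 kb matrices whose contact values are a signal. How they were normalized, and with which aligner the reads were placed, the sources used here do not give. For ESC libraries they also deposited a ratio of observed over expected, and for limb buds counts per pair of HindIII fragments, summed here to bin pairs by fragment midpoint. The build is mm9, per the submitters' processing notes. Matrices that add replicates together were not used here. Replicates are biological by the labels, and p-values measure the spread between libraries.

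Each library was brought to a common total over pairs separated by 2 bins or more, and a pair was kept when over 0 in at least 50% of the libraries of its fit. limma 3.58.1 in R 4.3.3 was run on log2 values with a pseudocount added, namely the percentile 5 of non-zero values (4.55 for ESC, 5.23 for tissue and 8.55 for D700 fits), so a log2 change understates changes of low values. Against distance, both the value and its expected value got the pseudocount. The expected value was the mean of at least 5 comparison pairs at the same separation in the same library. All groups of a fit share one estimate of the spread, and p-values were adjusted by Benjamini-Hochberg over all pairs tested. Levels per library have no pseudocount and no test. Fragment counts were tested by edgeR 4.0.16 (quasi-likelihood, TMM, total count of at least 10), with DESeq2 1.42.0 as an alternative. The fits were tested on simulated data. Alternatives covered the expected value, bin balancing, runs of equal values, pseudocount, filter, scaling, run year, the replicate block and leaving out each library.

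Pairs named were the 5 highest and 3 lowest called against distance in wild type ESCs, up to 5 of smallest adjusted p in each comparison (otherwise the 2 of smallest p), the innermost and the outermost. Bins named were the 3 highest and 2 lowest of each flank. Others are given as neighbours of these or as chosen after their values were seen.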

Additional observations from a re-analysis of the deposited data

Results flagged for a closer look

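The level of left-to-right contact over distance was on opposite sides of 0 in every library of 2 pairs of groups, and neither difference was tested. In D700 embryos the mean log2 level was -0.11, with both libraries below 0, and in the 5 unedited E11.5 libraries it was 0.17, with all 5 above 0. The separations differ, 294 to 987 kb in D700 against 966 to 1659 kb in the unedited libraries. With bins balanced both D700 libraries stood at -0.22. In DCTCF1 the mean level was -0.17 and in wild type ESCs 0.16, with both libraries of each on their own side of 0. With bins balanced the DCTCF1 libraries stood at 0.07 and 0.08, above 0.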

How the results depend on the processing

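The level over distance in wild type ESCs was 0.16 and ranged from 0.019 to 0.97 over the other ways to set the expected value. It was 0.061 from left-to-central pairs, 0.97 from central-to-right pairs, 0.074 from all pairs outside the block, 0.019 from medians, 0.28 with bins balanced, 0.36 with one pair per run of equal values and 0.32 with the power law. In limb buds it was 0.19, and in the same order 0.12, 0.86 and 0.15, then 0.36 with one pair per run and 0.27 with the power law. In D700 it was -0.11 and turned to 0.47 from central-to-right pairs, with -0.19 from all pairs outside the block, -0.22 balanced and -0.0012 with one pair per run. The central-to-right values rest on 28 pairs in each group. The cause was not tested.

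Counts of called members also depended on these choices. In wild type ESCs 27 higher calls became 6 with one pair per run, where fewer pairs are tested, and 82 with the power law, where more are. The 20 lower calls became 31 (left-to-central), 0 (central-to-right), 32 (all outside), 5 (balanced), 2 (one pair per run) and 57 (deposited observed over expected). Without a wild type library they were 14 to 18 and 6 to 8. In limb buds 35 higher calls became 8 (one pair per run), 85 (power law) and 18 (fragment counts), and 9 lower calls became 0 (central-to-right), 3 (balanced), 1 (one pair per run) and 21 (power law). Without one limb bud library the lower calls were 8 to 15, the most without posterior replicate 1. In D700 5 higher calls became 2 with the replicate block and 0 without either library, and 21 lower calls became 0 to 1.

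In D35 6 calls became 0 to 4 without one library (0 without D35 replicate 1, 1 without wild type replicate 2). The DCTCF2 call was lost (0) under the smaller pseudocount, median scaling, run year, the deposited ratio and without any of its 4 libraries. In DCTCF4 3 calls became 1 with run year and 0 to 6 without one library (0 without wild type replicate 1, 6 without DCTCF4 replicate 1, 1 without DCTCF4 replicate 2). D700 against unedited libraries gave 0 to 2 without one library, 1 without posterior replicate 1 and 2 without posterior replicate 2. The edgeR count of 0 became 1 with DESeq2 and 0 to 30 without one library, 30 without posterior replicate 1 and 4 without posterior replicate 2. A group left with 1 library takes its spread from the remaining groups. With own expected values, DCTCF2 and DCTCF4 had 0 calls among the 105 testable members, but the 4 calls in these lines fall on pairs outside those 105, so this says nothing of these calls. Scaling to the median pair moved the members' median log2 change in DCTCF2 from -0.08 to 0.03 and in DCTCF1 from 0.03 to -0.06. No named pair turned its direction under an alternative where it was called in the main run or in that alternative. Turns of pairs called in neither were not counted.

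Same-numbered replicates deviated together with correlations of -0.13 to 0.11, so the numbers pair no samples. With the replicate block, the paired alternative, the D700 count above was the only count of calls that moved by over 1.5 times. The pseudocount and filter alternatives do not apply to the level and were not run, and D700 could not be tested against central-to-right pairs alone. With 2 libraries a group, small changes were not detectable.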
